A study of Sus scrofa with 6 samples.

Results

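The insulin-like growth factor (IGF) system was followed in 2 kinds of pig (Sus scrofa) cells through its ligand IGF1, the receptors IGF1R and INSR and the binding proteins IGFBP2, IGFBP4, IGFBP5, IGFBP6 and IGFBP7. Genes were chosen by symbol: of 10 symbols asked for, 8 were paired with a row of the expression table, out of 20131 genes in all. IGF2 and IGFBP3 were not paired with a row by symbol and were not analysed here. One was pgEpiSC, epiblast stem cells from before gastrulation, derived from embryos at embryonic day 10 (4 libraries). It was compared with pEF, porcine embryonic fibroblasts of fetuses at embryonic day 30 (2 libraries). The labels give no treatment, genotype, sex or breed for either kind, and do not say whether the libraries of a group came from separate lines, animals or cultures, so p-values measure the spread between these libraries, which may be technical.

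As background, IGF1 and IGF2 are secreted peptides that signal through IGF1R, a receptor tyrosine kinase, and through hybrids of IGF1R with the insulin receptor INSR. The binding proteins hold most IGF outside the cell and can keep it from the receptor or deliver it there, until proteases release it. In fibroblasts and smooth muscle cells several of them are secreted into the matrix, whereas IGFBP2 is a known product of fetal tissues and embryonic cells.

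Expression was given as TPM, a transcript level corrected for transcript length, so that genes can be compared within a library. TPM keeps no read depth, so how deeply a library was read is unknown. Column sums were 157288 to 320206 TPM in pgEpiSC and 93556 and 145611 TPM in pEF, all far short of 1000000, so a level as deposited also moves with the scale of its library. For that reason values are also given after median-ratio scaling, in which each library is divided by a factor. The factor is the median ratio of its genes to their geometric mean over the libraries, taken over genes above 0 in all libraries. Over the tested genes the median log2 fold was 0.02 after scaling, against 0.48 as deposited. Among the pgEpiSC libraries, 1 and 4 were closest to each other (Pearson r = 0.990 across tested genes on the log2 scale, where genes are not independent replicates), against 0.935 to 0.963 for the other pairs of this group, and their median-ratio factors were 0.697 and 0.722 against 2.15 and 1.61 for libraries 2 and 3. No value above 0 was identical between libraries 1 and 4. All 9 epiblast markers were called higher in pgEpiSC, where they summed to between 526 and 2080 TPM, against at most 0.685 TPM in pEF. The 11 fibroblast markers found were all called lower, with sums of 6.16 to 14.0 TPM in pgEpiSC against 878 and 1965 TPM in pEF. Of 8 hypoblast and endoderm markers found, FOXA2, CER1 and APOA1 were called higher in pgEpiSC, where the list summed to 14.5 to 20.2 TPM, against 0.614 and 1.30 TPM in pEF. None of this list was at 0 in all pgEpiSC libraries, but 5 of the 8 stayed under 1 TPM in all of them. Of 8 trophectoderm markers 1, KRT7, was called higher, with sums of 1.93 to 14.2 TPM in pgEpiSC against 1.38 and 1.63 TPM in pEF. KRT7 alone was at 1.38 to 10.7 TPM in pgEpiSC, and 6 of the 8 stayed under 1 TPM in all pgEpiSC libraries. TFAP2C was called higher only after scaling. GATA3, GATA2 and TFAP2A were lower in every pgEpiSC library than in either pEF library, at most 0.0402, 0.0342 and 0.00956 TPM in pgEpiSC. The part of such cells in the results was not tested.

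Of the 5 binding proteins measured here, IGFBP2 made up nearly all of the summed level in the pgEpiSC libraries, while the fibroblasts carried IGFBP2, IGFBP4, IGFBP5 and IGFBP7 side by side. IGFBP4, IGFBP5, IGFBP6 and IGFBP7 were lower in every pgEpiSC library than in either pEF library, by 25.8-fold to 82.1-fold on the means as deposited and by 45.9-fold to 129-fold after scaling. IGFBP2 differed least of the 5, at a mean 2.43-fold lower as deposited and 4.91-fold after scaling. The ligand IGF1 was also lower on average but uneven among the fibroblasts, IGF1R was lower once libraries were scaled, and INSR was not told apart.

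**Figure D1:**
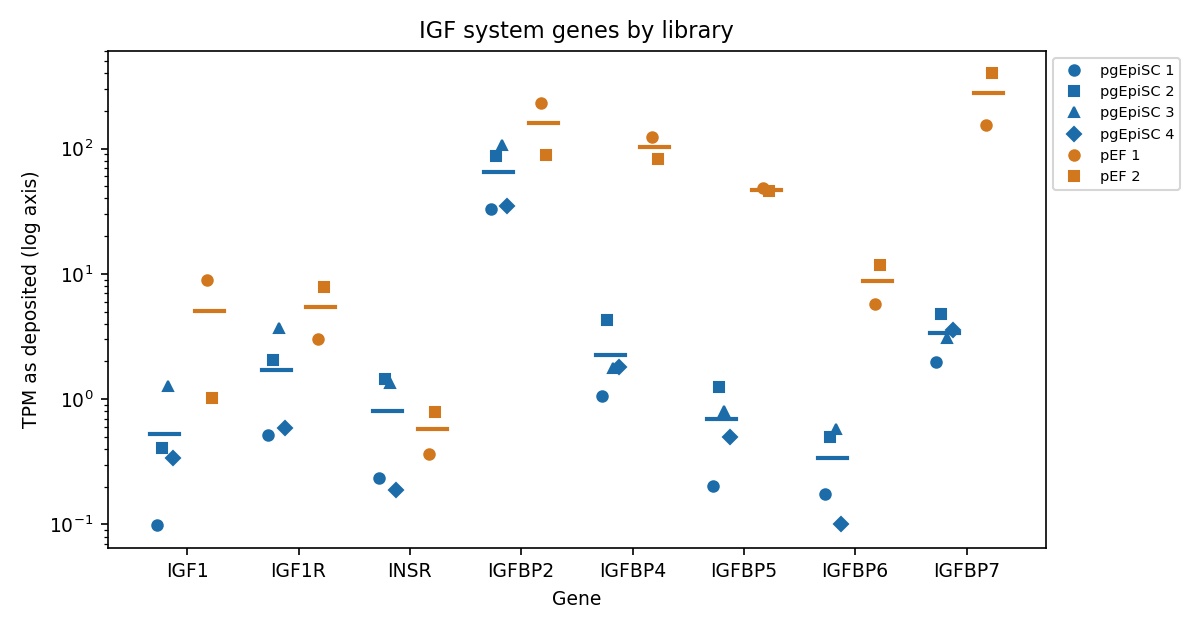
Level of each IGF system gene in each library, in TPM as deposited on a log axis; points are libraries (4 pgEpiSC in blue, 2 pEF in orange) and bars the group means. IGFBP4, IGFBP5, IGFBP6 and IGFBP7 show a gap between the groups, with at least 9.95-fold between the highest pgEpiSC and the lowest pEF library, while the groups overlap for IGF1, IGF1R, INSR and IGFBP2.

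Calls were made with limma across all 10424 genes that had at least 1 TPM in at least 2 libraries, on log2(TPM + 1), at a Benjamini-Hochberg adjusted p below 0.05. All 8 genes passed this filter, INSR through pgEpiSC libraries alone and IGFBP6 through pEF libraries alone. The filter thus favoured a higher INSR and a lower IGFBP6 in pgEpiSC. Of the 8, 6 were called lower in pgEpiSC, 0 higher and 2 were not called. Over all tested genes, 9.43% were called lower and 18.0% higher. After scaling 7 were lower and 1 was not called, where 30.9% of all genes were called lower and 27.0% higher. The median log2 fold of the 8 genes was -2.21 as deposited against 0.48 over all tested genes, and -2.70 against 0.02 after scaling. The groups of libraries did not overlap, with pgEpiSC lower, for 4 of the 8 genes as deposited (12.9% of all tested genes) and for 7 of the 8 after scaling (35.9%); 0 of the 8 had all pgEpiSC libraries higher, against 36.6% of tested genes as deposited and 34.5% after scaling. With libraries 1 and 4 of pgEpiSC averaged into 1, 5 genes were called lower, where 7.83% of all tested genes were. Leaving out both gave 5 lower and 1 higher, beside 8.91% lower and 48.7% higher over all tested genes. Leaving out both libraries 2 and 3 gave 8 lower, beside 24.0% over all tested genes.

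The ligand IGF1 (ENSSSCG00000000857), a growth and survival factor made by mesenchymal cells and liver, was at 0.0985, 0.404, 1.26 and 0.339 TPM in pgEpiSC libraries 1 to 4, against 9.02 and 1.03 TPM in pEF libraries 1 and 2. The first pEF library stood well above all others, and the second lay below pgEpiSC library 3, so the groups overlapped. The means were 0.526 ± 0.509 TPM in pgEpiSC (SD, n = 4) and 5.02 ± 5.65 TPM in pEF (SD, n = 2). IGF1 was called lower, with a log2 fold of -1.62 ± 0.49 (SE, limma, adjusted p = 0.0121) as deposited and -2.11 ± 0.68 (adjusted p = 0.0274) after scaling. As deposited the call was lost with no filter on low values (limma, adjusted p = 0.264). Without pEF replicate 1 the fold fell to -0.46 and was no longer called (adjusted p = 0.530), and it was -2.77 without pEF replicate 2; with 1 pEF library left, the fit takes its spread from the pgEpiSC libraries. After scaling the call was likewise lost without pEF replicate 1 (-0.68, adjusted p = 0.0752), and without pgEpiSC replicate 2 or 3 (adjusted p = 0.0720 and 0.0519), without both replicates 1 and 4 (adjusted p = 0.0865) and without both 2 and 3 (adjusted p = 0.133). By rank within each library, which does not depend on scale, IGF1 stood at the 39.1, 40.8, 54.0 and 50.6 percentiles of all listed genes in pgEpiSC and at the 92.6 and 57.2 percentiles in pEF. All pgEpiSC ranks were below both pEF ranks (exact two-sided permutation test, p = 0.0667, the smallest that 15 splits allow; adjusted p = 0.0762 over the 8 genes).

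IGF1R (ENSSSCG00000030560), the main signalling receptor of both IGFs, was at 0.520, 2.04, 3.71 and 0.592 TPM in pgEpiSC against 3.03 and 7.86 TPM in pEF. Library 3 of pgEpiSC exceeded the lower of the pEF libraries, and libraries 1 and 4 were the lowest. The means were 1.72 ± 1.50 TPM in pgEpiSC and 5.44 ± 3.42 TPM in pEF, a log2 fold of -1.30 ± 0.57 that was not called as deposited (limma, adjusted p = 0.0835). It was called after scaling, at -1.85 ± 0.29 (adjusted p = 0.000847), where the scaled levels were 0.747, 0.949, 2.30 and 0.820 in pgEpiSC against 5.32 and 8.33 in pEF. That call held with each library left out in turn, at log2 folds from -2.25 to -1.60. As deposited, IGF1R was called without pgEpiSC replicate 2 (-1.41, adjusted p = 0.0165) and without both pgEpiSC replicates 2 and 3 (-1.94). Without both replicates 1 and 4 it was at -0.66 (adjusted p = 0.252). Its rank percentiles were 55.8, 57.6, 71.4 and 57.3 in pgEpiSC, all below 80.6 and 87.1 in pEF (exact permutation p = 0.0667).

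INSR (ENSSSCG00000013566), the insulin receptor and partner of IGF1R in hybrid receptors, was low in all libraries, at 0.236, 1.46, 1.35 and 0.188 TPM in pgEpiSC against 0.364 and 0.791 TPM in pEF. The pgEpiSC libraries lay on both sides of the pEF libraries. Libraries 2 and 3 were above and libraries 1 and 4 below. The means were 0.809 ± 0.692 TPM in pgEpiSC and 0.578 ± 0.302 TPM in pEF, and the log2 fold was 0.13 ± 0.38 (limma, adjusted p = 0.830) as deposited and -0.20 ± 0.18 (adjusted p = 0.361) after scaling, so its direction turned with the scale. It was called higher without both pgEpiSC replicates 1 and 4 (0.62, adjusted p = 0.0454) and lower without both replicates 2 and 3 (-0.37, adjusted p = 0.0328).

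The balance of the receptors does not depend on library scale, because both levels come from the same library. INSR made up 31.2, 41.7, 26.7 and 24.1% of the summed IGF1R and INSR TPM in pgEpiSC, against 10.7 and 9.15% in pEF. The share was higher in all 4 pgEpiSC libraries, 30.9 ± 7.77% (SD, n = 4) against 9.94 ± 1.12% in pEF (SD, n = 2), a difference of 21.0 percentage points (exact two-sided permutation p = 0.0667, the smallest that the design allows). Put as a ratio, IGF1R exceeded INSR by 1.40-fold to 3.15-fold in pgEpiSC and by 8.32-fold and 9.93-fold in pEF. These shares and ratios rest on low levels. INSR was under 1 TPM in both pEF libraries, and both receptors were under 1 TPM in pgEpiSC libraries 1 and 4.

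IGFBP2 (ENSSSCG00000035392), a binding protein of fetal and embryonic tissues, was the most abundant of the 8 genes in every pgEpiSC library, at 33.2, 87.0, 106.8 and 35.0 TPM, against 229.7 and 89.2 TPM in pEF. Libraries 2 and 3 of pgEpiSC were near or above the second pEF library, and the first pEF library stood above all others. The means were 65.5 ± 37.1 TPM in pgEpiSC and 159 ± 99.4 TPM in pEF. IGFBP2 ranked 374th among 20131 genes by mean TPM in pgEpiSC and 114th in pEF. The log2 fold was -1.30 ± 0.50 (limma, adjusted p = 0.0460) as deposited and -1.95 ± 0.54 (adjusted p = 0.0148) after scaling. As deposited the call was lost without pgEpiSC replicate 1 or 4 (-1.05 and -1.07, adjusted p = 0.113 and 0.135) and without pEF replicate 1 or 2 (-0.63 and -1.98, adjusted p = 0.661 and 0.0785). It was also lost with pgEpiSC libraries 1 and 4 averaged (-1.06, adjusted p = 0.121) or both left out (-0.57, adjusted p = 0.403). After scaling it was lost without pEF replicate 1 (-0.97, adjusted p = 0.101) and without both pgEpiSC replicates 2 and 3 (-1.99, adjusted p = 0.0641). All 29 alternatives gave a lower level in pgEpiSC, and 17 of them a call.

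IGFBP4 (ENSSSCG00000017472), which inhibits IGF action until the protease PAPPA cleaves it, was at 1.07, 4.30, 1.78 and 1.82 TPM in pgEpiSC against 124.5 and 81.9 TPM in pEF. The groups were far apart, with the lowest pEF library 19.0-fold above the highest pgEpiSC library. The means were 2.24 ± 1.42 TPM in pgEpiSC and 103 ± 30.1 TPM in pEF, 46.0-fold lower in pgEpiSC, with a log2 fold of -5.07 ± 0.54 (limma, adjusted p = 8.62e-10). After scaling IGFBP4 was 85.4-fold lower, and 48.5-fold with pEF replicate 1 left out.

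IGFBP5 (ENSSSCG00000025924), a binding protein that attaches to the extracellular matrix, was at 0.201, 1.25, 0.812 and 0.497 TPM in pgEpiSC against 48.2 and 45.9 TPM in pEF. The pEF libraries were close to each other as deposited but at 84.6 and 48.7 after scaling, and no pgEpiSC library came near them on either scale. IGFBP5 was 68.3-fold lower on the means, 0.689 ± 0.447 TPM in pgEpiSC against 47.1 ± 1.57 TPM in pEF, with a log2 fold of -4.87 ± 0.55 (limma, adjusted p = 4.59e-09), and 129-fold lower after scaling.

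IGFBP6 (ENSSSCG00000000261), which binds IGF2 in preference to IGF1, was at 0.174, 0.500, 0.575 and 0.10 TPM in pgEpiSC against 5.73 and 11.7 TPM in pEF. It was the least abundant of the 5 binding proteins in every library of both groups. The means were 0.337 ± 0.235 TPM in pgEpiSC and 8.71 ± 4.21 TPM in pEF, 25.8-fold lower in pgEpiSC, and the log2 fold was -2.80 ± 0.49 (limma, adjusted p = 2.57e-05), a scale that understates the change of so low a gene. It was 17.0-fold lower without pEF replicate 2 and 45.9-fold lower after scaling.

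IGFBP7 (ENSSSCG00000008913), a secreted relative that binds IGFs weakly and also binds insulin, was at 1.98, 4.82, 3.09 and 3.57 TPM in pgEpiSC against 153.6 and 399.0 TPM in pEF. It was the most abundant of the 8 genes in the second pEF library and ranked 64th of all genes by mean TPM in pEF, against 5455th in pgEpiSC. The means were 3.36 ± 1.18 TPM in pgEpiSC and 276 ± 174 TPM in pEF, 82.1-fold lower in pgEpiSC, with a log2 fold of -5.87 ± 0.52 (limma, adjusted p = 7.54e-12). Without pEF replicate 2 it was 45.7-fold lower (log2 fold -5.19), without pEF replicate 1 118.6-fold (-6.56), and after scaling 115.9-fold. IGFBP4, IGFBP5, IGFBP6 and IGFBP7 were called lower under all alternatives that could be run for them, 29, 29, 28 and 29 in turn, with the highest adjusted p at 0.0189 (IGFBP6).

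**Figure D2:**
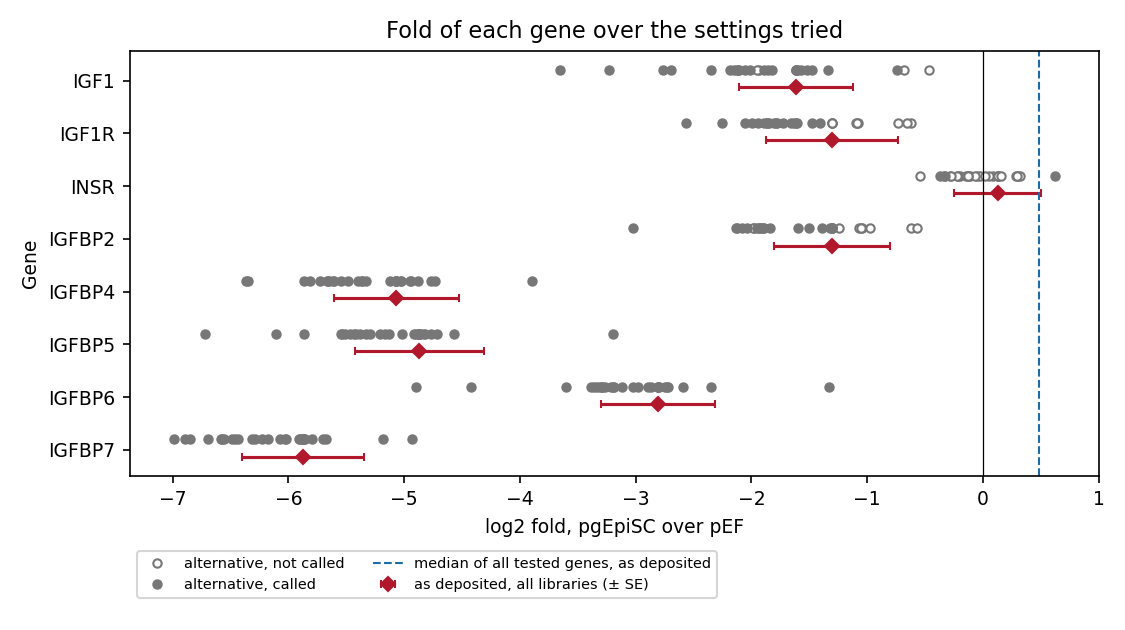
Log2 fold of pgEpiSC over pEF for each gene: red diamonds give the limma fit of the values as deposited with its SE, grey points the other settings (filled where called, open where not), and the dashed line the median of all tested genes. All points of IGFBP4, IGFBP5, IGFBP6 and IGFBP7 are filled and below 0, those of IGF1, IGF1R and IGFBP2 are below 0 but partly open, and those of INSR lie on both sides of 0.

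Fewer cells of a type and less RNA per cell cannot be told apart in these bulk samples. Levels of fibroblast markers were low in the pgEpiSC libraries. After scaling, the 11 fibroblast markers summed to 0.522, 0.249, 0.211 and 1.07% of their pEF mean in pgEpiSC libraries 1 to 4. IGFBP4, IGFBP5, IGFBP6 and IGFBP7 summed to 0.853, 0.876, 0.673 and 1.44% of theirs. Library 4 was the highest and library 3 the lowest in both sums, of which IGFBP7 and IGFBP4 made up most of the second. Gene by gene, library 4 was the highest for IGFBP4, IGFBP5 and IGFBP7, but for IGFBP6 it was the lowest (2.22, 2.07, 3.18 and 1.24% of its pEF mean in libraries 1 to 4), and IGFBP5 was lowest in library 1. In the same libraries IGFBP2 was at 19.1, 16.2, 26.6 and 19.5% of its pEF mean, and there library 3 was the highest. The part of the marker-bearing cells in these levels was not tested. The 8 muscle markers summed to 2.44 to 8.64 TPM in pgEpiSC against 569 and 2404 TPM in pEF, where most of it was the smooth muscle actin ACTA2 (475 and 2011 TPM) and the intermediate filament gene DES was at 24.5 and 204 TPM. Among the skeletal muscle factors, MYF5 was at most 0.177 TPM in pgEpiSC, against 0.234 and 3.06 TPM in pEF, and MYOD1 and MYOG did not exceed 0.549 TPM in any library.

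The composition of the 5 binding proteins set the groups apart independently of library scale. IGFBP2 held 90.6, 88.9, 94.5 and 85.4% of their summed TPM in pgEpiSC, against 40.9 and 14.2% in pEF. Every pgEpiSC library was above both pEF libraries, with means of 89.9 ± 3.77% in pgEpiSC (SD, n = 4) and 27.6 ± 18.9% in pEF (SD, n = 2), a difference of 62.3 percentage points. IGFBP7 held 5.41, 4.92, 2.73 and 8.71% in pgEpiSC against 27.3 and 63.6% in pEF. IGFBP4 held 3.33 ± 1.37% in pgEpiSC and 17.6 ± 6.44% in pEF. IGFBP5 held 0.938 ± 0.359% in pgEpiSC and 7.95 ± 0.889% in pEF, and IGFBP6 0.435 ± 0.128% in pgEpiSC and 1.44 ± 0.595% in pEF. The IGFBP7 difference of -40.0 points was -58.1 without pEF replicate 1 and -21.9 without pEF replicate 2. The IGFBP6 difference of -1.01 points was -0.58 without pEF replicate 2, and with 1 TPM added to each gene it turned to 0.405 points higher in pgEpiSC (exact permutation p = 0.533). As deposited, each of these 5 shares was fully separated between the groups (exact two-sided permutation p = 0.0667 for each and after Benjamini-Hochberg adjustment over the 5, the smallest that 15 splits allow); shares of 1 sum are not independent of each other.

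The order of the binding proteins by level was IGFBP2, IGFBP7, IGFBP4, IGFBP5 and IGFBP6 in all 4 pgEpiSC libraries and in the first pEF library. In the second pEF library IGFBP7 came before IGFBP2. Across the pgEpiSC libraries the neighbours IGFBP7 and IGFBP4 overlapped in their spread, at 3.36 ± 1.18 and 2.24 ± 1.42 TPM, as did IGFBP5 and IGFBP6. That spread includes the uneven scale of the libraries. Within libraries 1 to 4, IGFBP7 was at 1.98, 4.82, 3.09 and 3.57 TPM, against 1.07, 4.30, 1.78 and 1.82 TPM for IGFBP4. In pEF, IGFBP7 and IGFBP2 lay within their spread. IGFBP2 exceeded IGFBP7 by 9.81-fold to 34.6-fold in pgEpiSC, and its ratio to IGFBP7 was 1.50 and 0.224 in pEF.

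**Figure D3:**
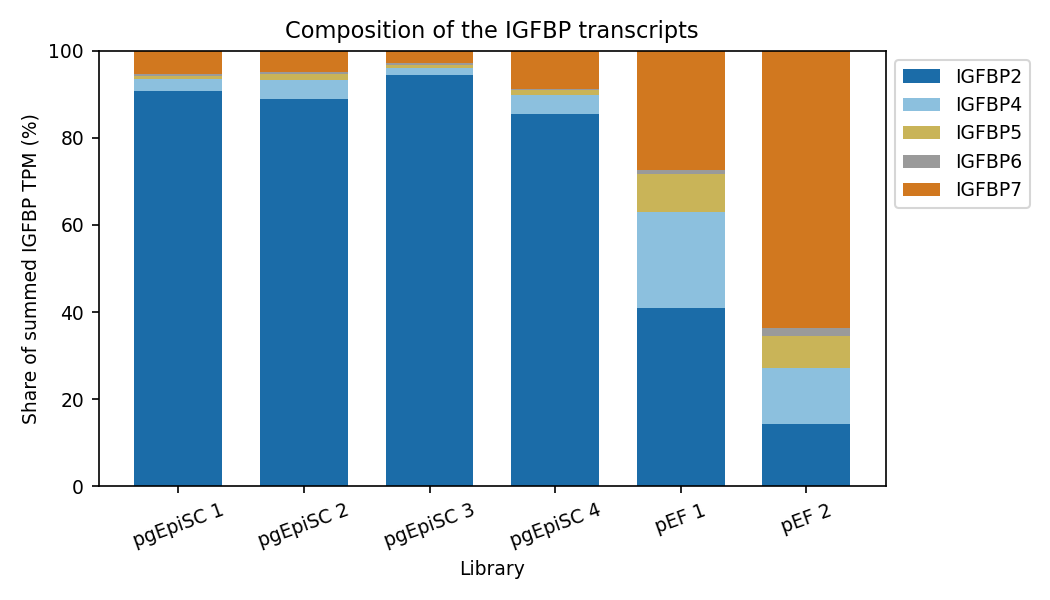
Share of each of the 5 binding proteins in their summed TPM (per cent) in each library, 4 pgEpiSC at the left and 2 pEF at the right. IGFBP2 takes 85.4 to 94.5% of each pgEpiSC bar and 40.9 and 14.2% of the pEF bars, where IGFBP7 takes 27.3 and 63.6%.

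In total the 5 binding proteins reached 36.6, 97.9, 113.0 and 41.0 TPM in pgEpiSC against 562 and 628 TPM in pEF. The pgEpiSC sums were all lower, at a mean of 72.1 ± 39.0 TPM against 595 ± 46.8 TPM in pEF (exact two-sided permutation p = 0.0667). After scaling they were 45.5 to 70.1 in pgEpiSC against 986 and 665 in pEF. They made up 0.0233 to 0.0541% of the listed TPM in pgEpiSC and 0.600 and 0.431% in pEF. Set against the receptor, the sum was 30.5 to 70.4 times the level of IGF1R in pgEpiSC, against 185 and 79.9 times in pEF.

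In all, 6 lists of further genes of the pathway were read from the same fit. They hold genes chosen for their roles, and for members that passed the filter through 1 group alone it favoured a higher level there. Each count stands beside the shares over all tested genes given above, 18.0% higher and 9.43% lower as deposited and 27.0% higher and 30.9% lower after scaling. Among receptors and processing enzymes outside the 8 genes, 3 of 8 were tested and 1 rose. It was FURIN, the convertase that cleaves receptor precursors, at 15.7 ± 11.2 TPM in pgEpiSC against 3.57 ± 0.753 TPM in pEF (log2 fold 1.62 ± 0.57, limma adjusted p = 0.0314). That call was lost without pgEpiSC replicate 3 (1.42, adjusted p = 0.125) and without pEF replicate 1 or 2 (1.45 and 1.79, adjusted p = 0.355 and 0.204). The insulin-degrading enzyme IDE, at 7.27 ± 2.92 TPM in pgEpiSC and 4.65 ± 1.93 TPM in pEF, was not called. IGF2R, which carries IGF2 to lysosomes and was singled out after its values were seen, was at 1.40, 11.1, 6.13 and 1.17 TPM in pgEpiSC against 0.739 and 2.20 TPM in pEF (0.97 ± 0.61, adjusted p = 0.244, not called). Its ratio to IGF1R was 1.65 to 5.46 in pgEpiSC against 0.244 and 0.280 in pEF, so the order of these receptors was opposite in the 2 groups in every library. IGFBP1 was below the filter in both groups.

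Receptor substrates and adaptors mostly gave no call as deposited. Of 13 tested, 1 rose, 0 fell and 12 were not called, with a median log2 fold of 0.00 against 0.48 over all genes. After scaling 2 were higher, 7 lower and 4 not called (median -0.45), where 27.0% of all tested genes were called higher and 30.9% lower. Of the 13, 3 had passed the filter through pgEpiSC alone. The 2 called higher after scaling were among these, so that their direction was favoured by the filter. The member that rose was GRB14, an adaptor that inhibits the insulin receptor kinase, at 1.75, 3.57, 3.30 and 1.82 TPM in pgEpiSC against 0.0141 and 0.0229 TPM in pEF (log2 fold 1.79 ± 0.47, limma adjusted p = 0.00349). It passed the filter through pgEpiSC alone, and its call was lost without pEF replicate 1 or 2 (adjusted p = 0.130 and 0.126). PTPN11, a phosphatase of the RAS branch and the most abundant member, was at 16.4 ± 8.15 TPM in pgEpiSC and 18.3 ± 8.59 TPM in pEF and was not called as deposited (log2 fold -0.19, adjusted p = 0.822). After scaling it was called lower, at 11.2 to 14.6 in pgEpiSC against 21.5 and 25.8 in pEF (-0.80, adjusted p = 0.0142).

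In the PI3K, AKT and mTOR arm, 0 of 21 tested genes rose, 1 fell and 20 were not called as deposited (median 0.20). After scaling 2 were higher and 8 lower (median -0.30), where 27.0% of all tested genes were called higher and 30.9% lower. Of the 21, 4 had passed the filter through pgEpiSC alone and 2 through pEF alone. Some of the genes called after scaling were among these, so that their direction was favoured by the filter. EIF4EBP1, a repressor of translation that mTOR inactivates, fell to 7.52 ± 4.08 TPM in pgEpiSC, against 21.4 ± 11.1 TPM in pEF (log2 fold -1.41 ± 0.55, limma adjusted p = 0.0484). The call was lost without pgEpiSC replicate 1, 3 or 4 (adjusted p = 0.10, 0.108 and 0.114) and without pEF replicate 1 or 2 (adjusted p = 0.140 and 0.455; -0.89 without the second). RHEB, the GTPase that activates mTOR and the most abundant member, was at 23.6 ± 9.31 TPM in pgEpiSC and 32.8 ± 7.57 TPM in pEF and was not called as deposited (-0.52, adjusted p = 0.458). After scaling it was called lower, with no overlap, at 16.2 to 26.0 in pgEpiSC against 48.3 and 40.5 in pEF (-1.15, adjusted p = 0.00751).

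Most tested proteases that cleave binding proteins, with their inhibitors, fell. Of 11 tested among 16 found, 8 fell, 0 rose and 3 were not called, with a median of -2.40, and 4 of the 11 had passed the filter through pEF alone. The 3 without a call were STC2, CTSD and PLAT. After scaling all 11 were called lower. The other 5 found were below the filter, and of these ADAM28 (0.0849 ± 0.0625 TPM in pgEpiSC against 0.0214 ± 0.00884 TPM in pEF) and PLG (0.00469 TPM on average in pgEpiSC, listed at 0 in pEF) were higher in every pgEpiSC library as deposited, at levels near 0. After scaling the groups overlapped for ADAM28, with pgEpiSC library 2 at 0.0380 and pEF library 1 at 0.0486. STC2, CTSD, PLAT, ADAM28 and PLG were named after their values were seen. HTRA1, a secreted serine protease, was at 0.550, 1.75, 1.01 and 0.548 TPM in pgEpiSC against 42.4 and 87.0 TPM in pEF (log2 fold -5.02 ± 0.56, limma adjusted p = 2.34e-09). MMP14, a membrane-bound metalloproteinase, was the most abundant member in pgEpiSC at 6.57 ± 3.68 TPM, against 31.0 ± 9.63 TPM in pEF (log2 fold -2.18 ± 0.54), no longer called with pEF replicate 1 or 2 left out (adjusted p = 0.0626 and 0.149). PAPPA, the protease of IGFBP4, was singled out after its values were seen. It was at 0.0702 ± 0.0460 TPM in pgEpiSC against 2.21 and 8.94 TPM in pEF, and passed the filter through pEF alone, so that its direction was favoured by the filter. Without pEF replicate 1 or 2, 5 members of this list were called lower, beside 6.53 and 5.32% of all tested genes.

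Among regulators of IGF2 transcription, imprinting or mRNA, 3 of 8 tested genes rose and 5 were not called (median 1.28), where 18.0% of all tested genes were called higher. In all 4 of the 8 had passed the filter through pgEpiSC alone, among them LIN28A and LIN28B of the 3 that rose. After scaling 5 were higher and 1 lower, where 27.0 and 30.9% of all tested genes were. IGF2BP1, an RNA-binding protein that binds IGF2 mRNA, was at 12.9, 71.7, 32.8 and 12.0 TPM in pgEpiSC against 1.66 and 3.32 TPM in pEF (log2 fold 2.93 ± 0.58, limma adjusted p = 0.000153), no longer called with pEF replicate 1 left out (2.58, adjusted p = 0.0933). LIN28A, an RNA-binding protein of early embryonic cells, was between 234 and 863 TPM in pgEpiSC and listed at 0 in both pEF libraries. LIN28B, its paralog and the third gene that rose, was at 6.96 ± 3.76 TPM against 0.0849 ± 0.0200 TPM in pEF, and lost its call without pEF replicate 1 (adjusted p = 0.0612). IGF2BP3, at 12.0 ± 5.48 TPM in pgEpiSC and 3.78 ± 1.22 TPM in pEF, was not called as deposited (adjusted p = 0.0592) and was called higher after scaling (0.81, adjusted p = 0.0105). Without pEF replicate 1, 1 member of the list was called, where 2.42% of all tested genes were called higher.

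The CCN proteins and other secreted proteins that share an IGFBP-like domain included 6 tested genes, of 9 found. All 6 were called lower, as deposited and after scaling (median -4.31 and -4.83), and 3 of the 6, CCN3 among them, had passed the filter through pEF alone. The other 3 were below the filter and went both ways, and are named after their values were seen. CCN6 was at 0.436 TPM in pgEpiSC and 0.0296 TPM in pEF on average, IGFBPL1 at 0.247 TPM in pgEpiSC and 0.000996 TPM in pEF, and CCN5 at 0.153 TPM in pgEpiSC and 0.681 TPM in pEF, and for all 3 the groups did not overlap. HTRA1 counts here too. CCN3, a matricellular protein, was at 0.159 ± 0.139 TPM in pgEpiSC against 34.1 and 31.7 TPM in pEF (log2 fold -4.88 ± 0.54, limma adjusted p = 2.42e-09). CCN1, which binds integrins, was at 2.45, 2.16, 1.46 and 1.16 TPM in pgEpiSC against 24.5 and 68.5 TPM in pEF (log2 fold -3.93 ± 0.56). All 6 tested genes were also called lower with each pgEpiSC library left out in turn, beside 7.62 to 13.1% of all tested genes. Those fits kept the same filter, so the direction of the 3 that passed through pEF alone was favoured there too.

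**Figure D4:**
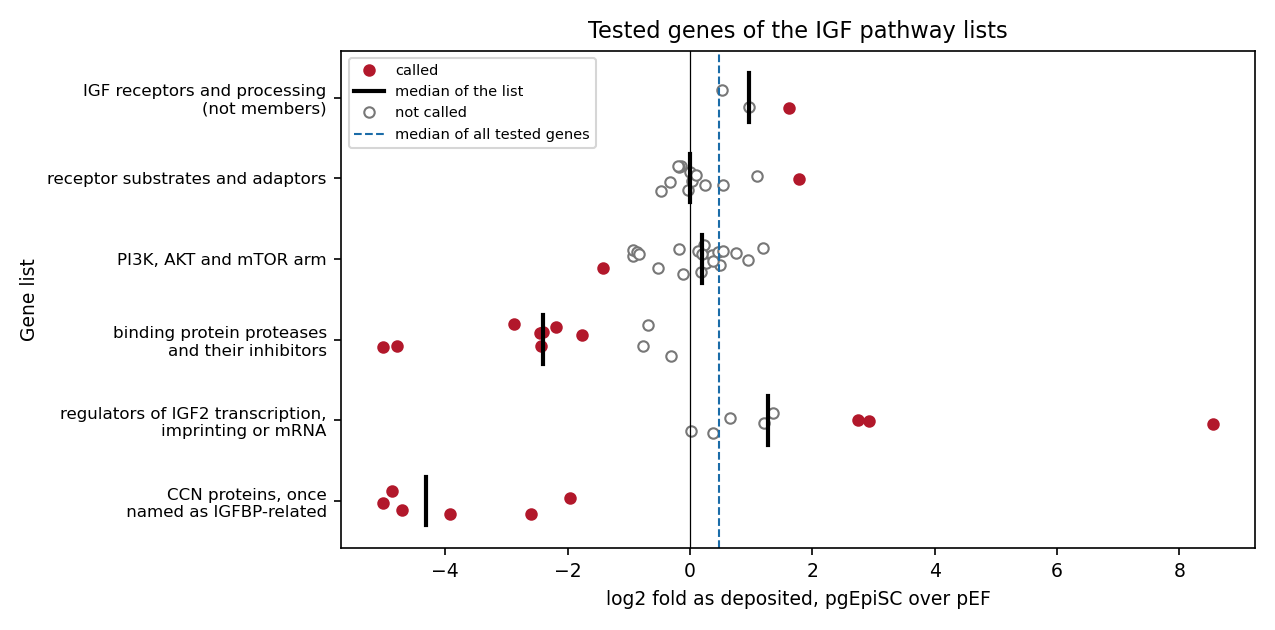
Log2 fold of pgEpiSC over pEF, as deposited, for the tested genes of the 6 pathway lists; red points were called, open points were not, black bars are list medians and the dashed line is the median of all tested genes. The point beyond 8 is LIN28A, listed at 0 in pEF, so that its place depends on the added 1 TPM.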

How the data were processed

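Strand-specific, rRNA-depleted total RNA libraries were made and sequenced on a HiSeq instrument, per the labels' protocols. The submitters' processing notes list kallisto 0.44.0 and STAR 2.6.0c, with no role for either; no genome build or annotation is given in the sources used here. The authors deposited TPM, with 1 column per library. The genes and lists were chosen with earlier results of these data known. IDs were paired with symbols by a gene name table (14062 of 20132 rows, 69.8%); rows that share a symbol were summed. limma 3.58.1 (R 4.3.3) was fitted on log2(TPM + 1) with group as the factor and a trended empirical Bayes variance over 10424 genes, after a test on simulated data. Shares, sums and ranks were compared by exact permutation over 15 splits. Named genes are the 8 members found and, per list, up to 4 called genes (2 per direction) with the largest folds plus the most abundant in each group. A gene that this rule takes is not reported here. Tables and figures used Python 3.11.15, pandas 2.3.3, numpy 2.4.6 and matplotlib 3.10.9. Alternatives covered pseudocounts, filters, scaling, variance, a replicate block and left-out libraries; averaging pgEpiSC libraries 1 and 4, and leaving out 1 and 4 or 2 and 3, were chosen after seeing the data. The planned IGF2 share had no value, since IGF2 is not analysed here.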

Additional observations from a re-analysis of the deposited data

Results flagged for a closer look

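Of 23 measures of the 8 genes checked within the 4 pgEpiSC libraries, 2 had a library far from the others by Dixon's criterion at the 95% level, where chance flags about 1 in 20 groups. The share of IGFBP6 in the summed IGFBP TPM was 0.245% in pgEpiSC replicate 4 and 0.474 to 0.510% in the other pgEpiSC libraries. The rank percentile of IGF1R among all listed genes was 71.4 in pgEpiSC replicate 3 and 55.8 to 57.6 in the others.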

How the results depend on the processing

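IGFBP4, IGFBP5, IGFBP6 and IGFBP7 kept their direction and call under the alternatives run, and sums, shares and percentiles kept their direction except as follows. With 1 TPM added to each gene the IGFBP6 share turned to 0.405 points higher in pgEpiSC. The INSR fold turned to -0.20 after median-ratio scaling, -0.54 after rescaling to 1000000, -0.29 after quantile normalization, -0.21 with scaling and the replicate block, -0.13 with scaling and pgEpiSC 1 and 4 averaged, and -0.37 and -0.33 (scaled) without pgEpiSC 2 and 3; with 1 library left out it ran from -0.069 to 0.32 as deposited and from -0.34 to -0.12 scaled, where it was -0.15, -0.22, -0.27 and -0.12 without pgEpiSC 1 to 4 and -0.34 and -0.13 without pEF 1 and 2, and as deposited -0.048, -0.027 and -0.069 without pgEpiSC 2, pgEpiSC 3 and pEF 1. IGF2R turned to -0.049 without pgEpiSC 2 and 3. IGF system genes called lower numbered 3 under the filter of mean TPM of at least 5 (4 tested) and 4 to 7 with 1 library left out; 1 was called higher without pgEpiSC 1 and 4. Genes called over the whole table, 1874 higher and 983 lower as deposited, were 967 higher at a pseudocount of 5, 717 higher with no filter, 1185 higher and 368 lower under the stricter filter, 2812 and 3222 after median-ratio scaling, 2924 lower after rescaling to 1000000, and 3374 and 2779 after quantile normalization. With 1 library left out they ran from 252 to 2270 higher and 555 to 1367 lower as deposited, and from 1699 to 2900 and 2737 to 3312 after scaling (2930, 3312, 3005 and 2998 lower without pgEpiSC 1 to 4, 2807 and 2737 without pEF 1 and 2). Averaging pgEpiSC 1 and 4 gave 2991 lower when scaled; leaving both out gave 5078 higher, and 2906 lower when scaled; leaving out 2 and 3 gave 2503 lower, and 3450 and 3279 when scaled. The cause of these shifts was not tested. Groups share only replicate numbers (correlations of same-numbered deviations 0.0982 and 0.172); with the replicate block 2204 were higher and 893 lower and 7 IGF system genes were lower, and 2624 lower when scaled. IGF1, IGF1R, IGFBP2 and INSR were called under 21 of 28, 16 of 28, 17 of 29 and 3 of 28 alternatives; the stricter filter left out IGF1, IGF1R, INSR and IGFBP6. TPM keeps no depth, so what depth limits is unknown.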

Other observations

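IGFBP2 and IGFBP5 are neighbouring coding genes in the RefSeq annotation of the pig assembly Sscrofa11.1, with no coding gene listed between them, yet their levels stood far apart in pgEpiSC. The ratio of IGFBP2 to IGFBP5 was 165, 69.8, 132 and 70.4 in pgEpiSC libraries 1 to 4, against 4.77 and 1.94 in pEF. The groups did not overlap in this ratio, which was computed after the levels of both genes were seen and was given no test.

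For each of the 8 genes, the most alike tested gene was taken by Pearson correlation of scaled log2 levels over the 6 libraries. For IGFBP4, IGFBP5, IGFBP6 and IGFBP7, whose groups lay far apart, this description mostly follows the split between the groups. The most alike genes were TIFA for IGF1 (r = 0.994), TTC28 for IGF1R (0.998), FZD4 for INSR (0.990) and NUDT6 for IGFBP2 (0.996). They were TMF1 for IGFBP4 (0.999), JMJD8 for IGFBP5, SEC24D for IGFBP6 and MEIS1 for IGFBP7. FZD4 did not split the groups, at 0.264, 1.36, 1.09 and 0.257 TPM in pgEpiSC against 0.348 and 0.652 TPM in pEF. TIFA and NUDT6, like IGF1 and IGFBP2, were highest in the first pEF library. Of 8909 genes compared, 263, 394, 436 and 305 had r above 0.99 with IGFBP4, IGFBP5, IGFBP6 and IGFBP7, but 6, 12, 0 and 4 with IGF1, IGF1R, INSR and IGFBP2. At r above 0.9 the counts were 2217 to 2275 for IGFBP4 to IGFBP7 and 203, 1307, 59 and 384 for IGF1, IGF1R, INSR and IGFBP2. The fibroblast libraries also differed between themselves. IGF1, IGFBP2 and IGFBP4 were higher in the first pEF library (9.02 against 1.03, 229.7 against 89.2 and 124.5 against 81.9 TPM). In contrast, IGF1R, INSR, IGFBP6 and IGFBP7 were higher in the second, and both directions held after scaling. IGFBP5 was at 48.2 and 45.9 TPM as deposited but at 84.6 and 48.7 after scaling.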
